A study of Mus musculus with 6 samples.

Results

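Transcripts of 35 megakaryocyte and platelet genes were followed through 6 RNA sequencing libraries of mouse LSK cells, marrow cells without lineage markers but with Sca-1 and c-Kit on their surface, a fraction that contains stem cells and early progenitors. The genes were taken by symbol from a given list, and all 35 were among the 48395 symbols in the count tables. They divide by role into 13 adhesion receptors, 10 genes of granule contents and granule formation, and 12 genes of signalling and the cytoskeleton. Levels are given as CPM, counts scaled to a common library total and adjusted between libraries by TMM factors.

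Donor marrow carried Mx1Cre with Jak2V617F/+, an activating allele of a kinase that relays cytokine signals in blood cells, and came from mice primed with 5-fluorouracil. It was transduced with lentivirus carrying either vector alone (3 libraries) or Hmga2 (3 libraries) and transplanted into lethally irradiated C57BL/6 recipients, whose marrow was taken 32 weeks later. Both groups therefore share the Jak2 allele, the Cre driven by the interferon-inducible Mx1 promoter, the priming and the transplantation. The replicates of each group are labelled biological; the number of mice behind each library and whether the sorted cells carried the vector are points not given in the sources used here. Where replicates share an origin, p-values measure only the spread between these libraries. In bulk RNA such as this, fewer cells of a type and less RNA per cell cannot be told apart.

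Megakaryocytes are the large marrow cells that shed platelets. Their receptors bind the damaged vessel wall, their alpha granules store chemokines, growth factors and adhesive proteins, and their integrin alphaIIb beta3 binds fibrinogen once thrombin, ADP or collagen signals have activated it. Part of this programme is already transcribed in stem cells: Itga2b and Vwf mark stem cells primed for the platelet lineage.

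Total counts per library ran from 24818011 to 35471806, so 3 reads, the limit that a count of 0 allows, correspond to 0.0846 to 0.121 CPM (counting error only). Of the LSK and stem cell markers all 10 of 10 were measured, with summed levels of 1117 to 1258 CPM in the vector libraries and 1359 to 1453 CPM in those labelled Hmga2. Most of each sum was Cd34 and Kit, and for every single marker of the 10 the groups overlapped. Hmga2 itself was at 5.96, 5.04 and 7.03 CPM in vector replicates 1 to 3. In Hmga2 replicates 1 to 3 it was at 2.63, 6.63 and 5.91 CPM, so its count did not separate the labels. It is unknown whether reads from the introduced Hmga2 sequence entered this count. The count therefore cannot show whether the introduced gene was expressed, and directions below belong to "the libraries labelled Hmga2". Vector replicates 1 and 3 and the library labelled Hmga2 replicate 2 were rich in immunoglobulin transcripts (Igha above 1000 CPM), while the summed level of 4 Y-linked genes was 191 and 129 CPM in Hmga2 replicates 1 and 3 and 5.24 to 21.4 CPM in the other libraries.

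The genes spanned a wide range of levels in LSK cells. Dividing each mean CPM by the kilobases of exon in the annotation put Pf4, the alpha-granule chemokine platelet factor 4, first, at 158.6 CPM per kilobase, above 97.6% of all genes tested. It was followed by Bin2 (114 CPM per kilobase), which encodes a membrane-curving BAR-domain protein, Alox5ap (105), the activating protein of 5-lipoxygenase, Rap1b (95.4), the small GTPase that switches integrins on, and Fermt3 (91.2), the kindlin that binds integrin tails. Itga2b, the alphaIIb chain, reached 74.2 CPM per kilobase and its partner Itgb3, the beta3 chain, 11.2 CPM per kilobase, a 6.61-fold difference between the genes. The chemokine gene Ppbp, which neighbours Pf4 on chromosome 5, was at 2.16 CPM per kilobase, 73.4-fold under Pf4, and Tubb1, the beta tubulin of the platelet's marginal band, at 0.838 CPM per kilobase. The median of all genes tested was 5.45 CPM per kilobase, and 21 of the 35 genes lay above it.

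**Figure D1:**
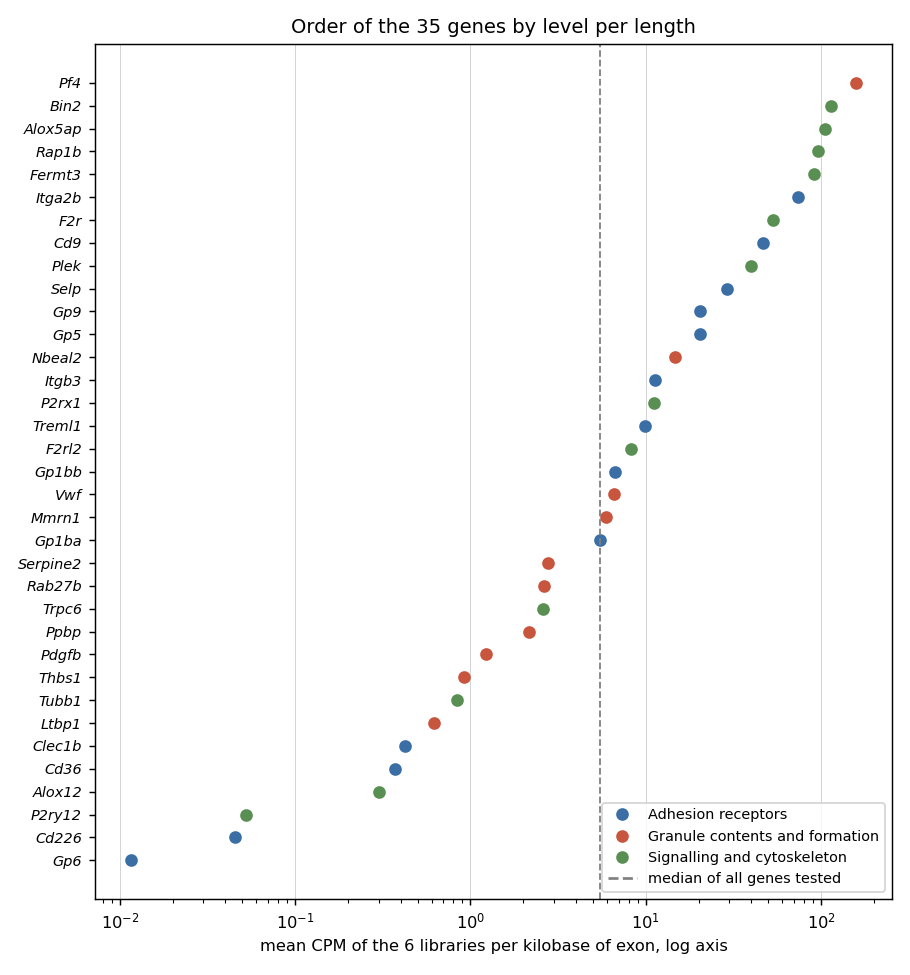
Mean level of each of the 35 genes over the 6 libraries, in CPM per kilobase of exon on a log axis, coloured by role; the dashed line is the median of all genes tested (5.45). Pf4 is highest at 158.6 and Gp6 lowest at 0.0116 CPM per kilobase.

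Among adhesion receptors the order within a complex was uneven as well. The GPIb-IX-V complex binds von Willebrand factor, and its subunit genes Gp9 and Gp5 were at 20.4 and 20.3 CPM per kilobase, against 6.72 for Gp1bb and 5.49 for Gp1ba. Exons of Gp1bb overlap those of Sept5 on the same strand, so its count is uncertain. The order also depends on exon lengths taken from all annotated transcripts, which need not be those used in LSK cells. Of the 3 genes under the count filter, Gp6, the platelet collagen receptor, had 0, 0 and 2 reads in the vector libraries and 5, 3 and 3 reads in the libraries labelled Hmga2, at or close to the limit of detection. P2ry12, the ADP receptor blocked by clopidogrel, had 1 to 12 reads per library, and Cd226, a receptor shared with T and NK cells, 0 to 13. P2ry12 shares exonic sequence with Med12l on the opposite strand, and use of strand in the counting is a point not given in the sources used here.

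Promoter windows are shown for the gene with the highest level per kilobase in each role. Only genes with an entry in the RefSeq table (build GRCm38.p6) were considered. Each window reaches from 250 bases before the start of the gene's entry to 50 after it, written 5′ to 3′ on the gene's strand. Capitals mark matches to motifs of 3 factor families of the megakaryocyte lineage, searched on both strands: the GATA motif was spelled AGATAA or else TGATAA, and with a final G it was spelled AGATAG or else TGATAG; the ETS motif was spelled CCGGAA or else CAGGAA, and the RUNX motif TGTGGT; none of the matches shown overlap. The windows are chr5:90772185-90772484 on the plus strand, chr11:102469834-102470133 on the minus strand and chr10:117845925-117846224 on the minus strand.
Pf4: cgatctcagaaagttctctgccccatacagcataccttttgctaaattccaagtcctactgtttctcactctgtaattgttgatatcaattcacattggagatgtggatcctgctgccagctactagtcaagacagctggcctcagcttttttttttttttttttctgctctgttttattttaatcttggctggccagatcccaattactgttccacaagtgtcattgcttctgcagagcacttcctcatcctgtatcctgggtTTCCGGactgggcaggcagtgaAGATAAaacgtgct
Itga2b: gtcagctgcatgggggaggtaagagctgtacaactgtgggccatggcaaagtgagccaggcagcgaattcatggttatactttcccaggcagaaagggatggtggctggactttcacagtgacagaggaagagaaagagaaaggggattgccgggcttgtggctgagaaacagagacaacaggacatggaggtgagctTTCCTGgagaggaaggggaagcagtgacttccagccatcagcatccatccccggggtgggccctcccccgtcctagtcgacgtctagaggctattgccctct
Rap1b: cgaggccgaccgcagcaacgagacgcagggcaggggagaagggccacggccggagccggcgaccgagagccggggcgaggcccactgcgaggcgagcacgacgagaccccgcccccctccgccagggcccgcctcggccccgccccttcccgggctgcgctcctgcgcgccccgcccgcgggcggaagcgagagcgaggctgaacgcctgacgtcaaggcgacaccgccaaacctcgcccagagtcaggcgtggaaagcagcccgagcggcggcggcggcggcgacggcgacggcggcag
The Pf4 window holds 1 ETS match on its minus strand, whose first base lies 14 bases after the start, and 1 GATA match 36 bases after it. In Itga2b a single ETS match begins 52 bases before the RefSeq start, and the Rap1b window holds 0 matches. For these 2 minus-strand genes GENCODE places the outermost start further upstream, at 102470122 for Itga2b and 117846035 for Rap1b. By that annotation the Itga2b match lies inside the gene.

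Windows were found for 27 of the 35 genes (28 windows, since Ltbp1 has 2); Vwf, Bin2, Alox5ap, Rab27b, Pdgfb, Itgb3, Thbs1 and Cd226 had no entry. A GATA match was present in 9 of the 28 windows, 32.1%, beside 29.8% of all 32851 windows of the same length. An ETS match stood in 13 windows, 46.4% beside 41.4%, and a RUNX match in 4, 14.3% beside 16.8%. Both a GATA and an ETS match were found in the windows of Gp1ba, Mmrn1, P2rx1 and Pf4, 14.3% beside 11.4%. The shares among these genes were thus close to those of promoters at large.

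Between the groups, 28 of the 32 genes that passed the count filter had a positive log2 fold change (labelled Hmga2 over vector), with a median of 0.28, and 0 passed the adjusted threshold in edgeR. Over all 16739 genes tested the median was 0.00, 50.4% had a positive value, and 0% passed at an adjusted p under 0.05. At an unadjusted p under 0.05, 3 of the 32 genes were higher (F2r, F2rl2 and Plek) and 0 lower, the smallest adjusted p of the 32 being 0.855, where 2.23% of all genes were higher and 3.36% lower. DESeq2 called 0 of the 32, with a smallest adjusted p = 0.303 for F2rl2; it called 0.424% of all genes. For 29 of the 32 the 95% interval of the fold change included 0, and for 14 it reached beyond a 2-fold rise, so a change of that size in them was neither shown nor outside the interval. Since the 32 genes come from the same 6 libraries, their common sign is not a set of separate observations.

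**Figure D2:**
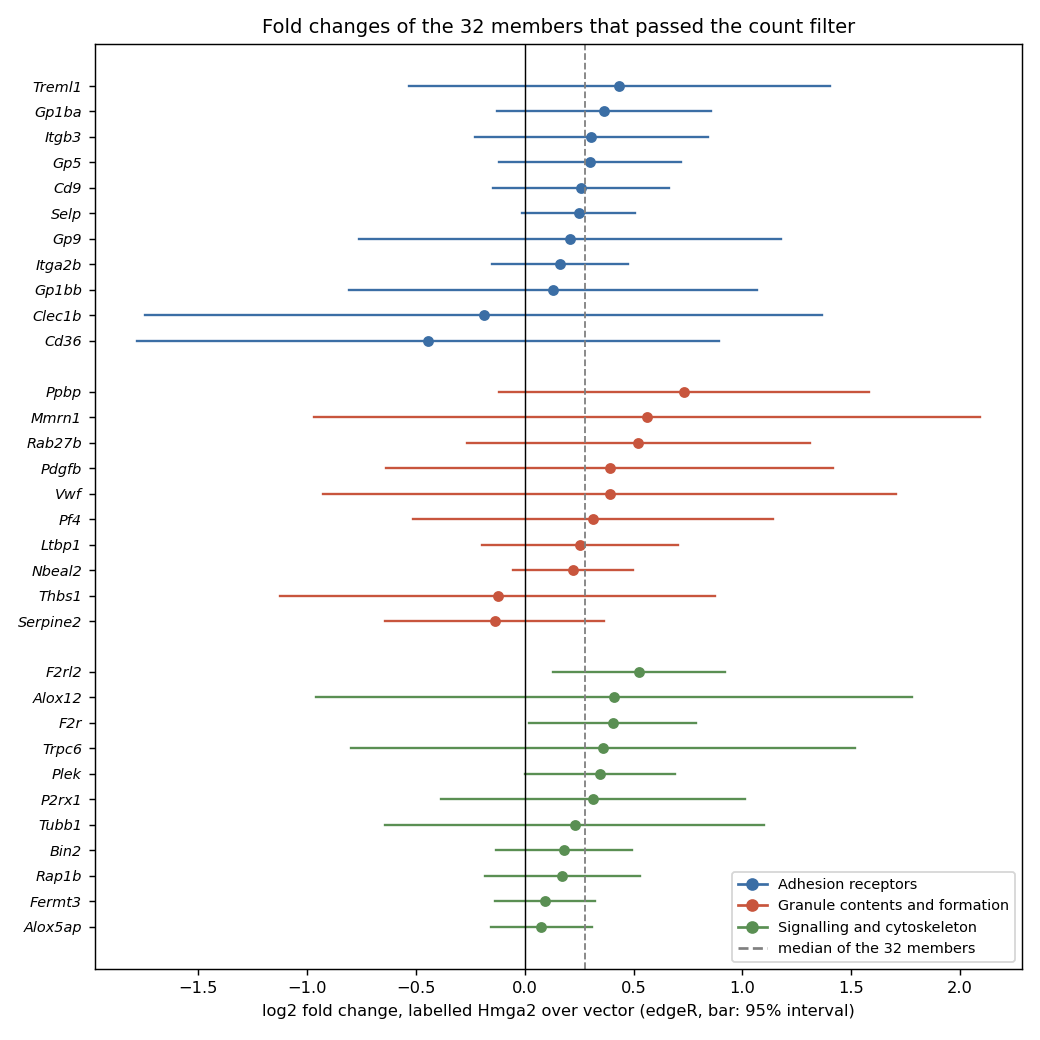
Log2 fold change (labelled Hmga2 over vector, edgeR) of the 32 genes that passed the count filter, by role, with bars for the 95% interval and a dashed line at their median of 0.28. Only the intervals of F2rl2, F2r and Plek lie above 0, and the widest belong to Clec1b, Mmrn1, Alox12, Cd36 and Vwf.

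Which libraries carried the high values did not follow the labels. Vector replicate 1 was among the 3 highest libraries for 29 of the 32 genes, Hmga2 replicate 2 for 28 and Hmga2 replicate 3 for 26, against 9 for Hmga2 replicate 1 and 2 each for vector replicates 2 and 3. Taken as the deviation of log2 CPM from a gene's own 6-library mean, the median of the 32 genes was 0.21, -0.27 and -0.41 in vector replicates 1, 2 and 3 and -0.05, 0.37 and 0.18 in Hmga2 replicates 1, 2 and 3. Vector replicate 1 thus lay above 2 of the 3 libraries labelled Hmga2. The corresponding medians over all genes tested stayed between -0.01 and 0.01.

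These values depended on single libraries. Without vector replicate 1 the median log2 fold change was 0.51, 31 of 32 values were positive, and 14 genes were higher at an unadjusted p under 0.05, where 5.57% of all genes were; the smallest adjusted p = 0.424 (edgeR) belonged to Rab27b. Without vector replicate 2 the median was 0.18, without vector replicate 3 it was 0.13 and without Hmga2 replicate 2 it was 0.17, where 23 of 32 values were positive. The number of the 32 genes higher at an unadjusted p under 0.05 fell from 3 to 1 without vector replicate 2 (1.15% of all genes), vector replicate 3 (1.84%) or Hmga2 replicate 1 (1.22%), where the gene was F2rl2, and without Hmga2 replicate 2 (2.92%), where it was Selp. Without Hmga2 replicate 3 it stayed at 3 (1.65% of all genes), and 1 gene, Cd36, was lower (2.72%). The number higher was 6 with a term for immunoglobulin-rich libraries (2.2% of all genes) and 6 with one for Y-linked genes (1.95%). Y-linked genes were high only in Hmga2 replicates 1 and 3, so that term is partly confounded with the label. Within the immunoglobulin-rich libraries (Hmga2 replicate 2 against vector replicates 1 and 3) the median difference was 0.51 and within the other 3 libraries 0.29. Each of these differences rests on 1 library in one group, Hmga2 replicate 2 or vector replicate 2. No spread can be given for that group, and no conclusion is drawn from them.

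**Figure D3:**
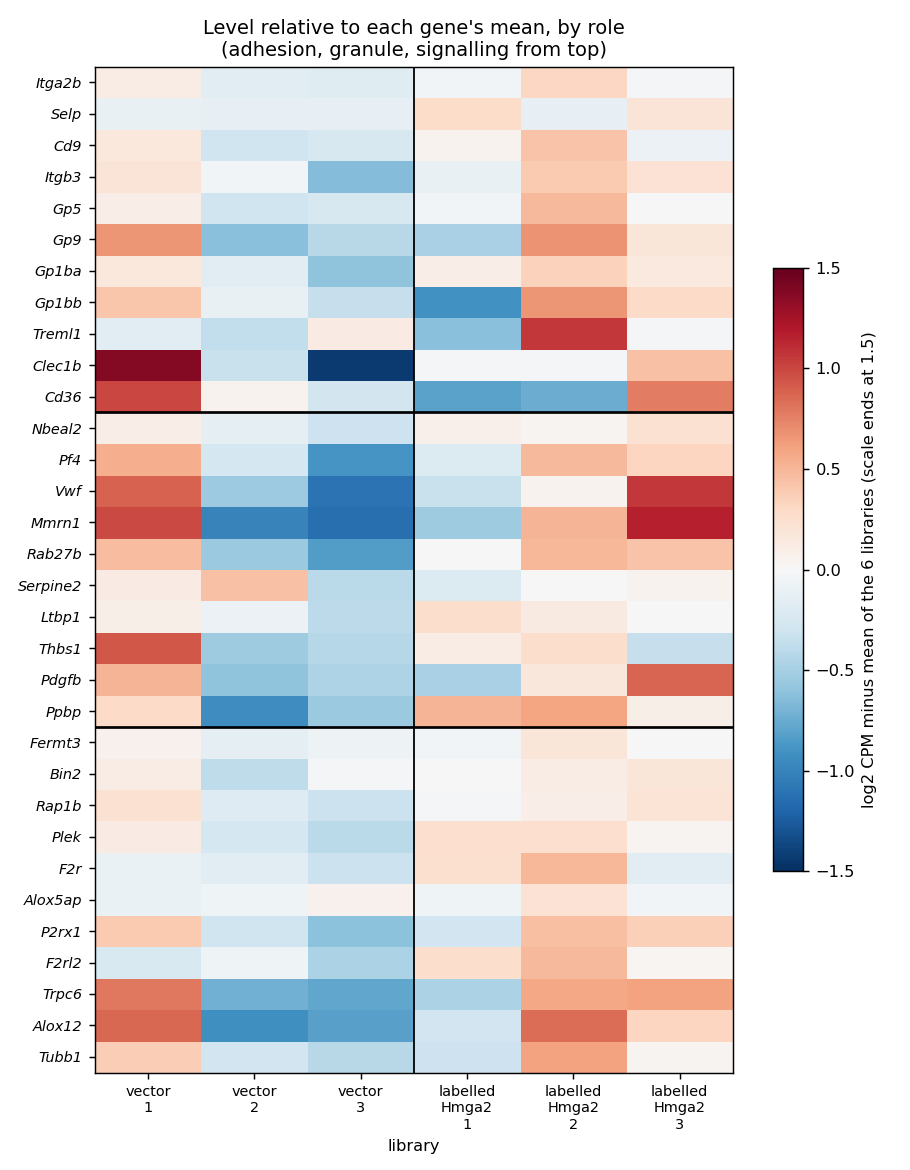
Deviation of log2 CPM from the gene's own mean of 6 libraries, with genes in rows by role and libraries in columns; red is above and blue below the mean. Vector replicate 1 and Hmga2 replicates 2 and 3 are mostly red, with medians of 0.21, 0.37 and 0.18, and vector replicates 2 and 3 mostly blue, with medians of -0.27 and -0.41.

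Adhesion receptors had 9 of 11 tested genes with a positive fold change and a median of 0.25; 0 passed the threshold. Itga2b (chromosome 11, positions 102453297 to 102470122 on mm10, minus strand) was at 435, 358 and 353 CPM in vector replicates 1, 2 and 3 and at 390, 497 and 395 CPM in Hmga2 replicates 1, 2 and 3, and its log2 fold change was 0.16 (SE 0.13, adjusted p = 0.876). Only Hmga2 replicate 2 exceeded vector replicate 1, so the groups overlapped. Itgb3, its partner, ranged from 41.0 to 74.1 CPM with vector and from 59.7 to 84.9 CPM in those labelled Hmga2 (0.31, SE 0.23). Selp encodes P-selectin, the granule-membrane receptor that captures leukocytes when platelets are activated. Its vector values were nearly equal, 118, 116 and 117 CPM, and those labelled Hmga2 were 154, 116 and 146 CPM, for a log2 fold change of 0.25 ± 0.11 (SE; adjusted p = 0.855). Hmga2 replicates 1 and 3 were high and Hmga2 replicate 2 was level with the vector libraries. Antisense genes overlap exons of Selp and of Cd9, so their counts are uncertain to that extent.

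Gp1ba, the subunit that holds the von Willebrand factor site, was at 16.4, 13.1 and 9.63 CPM with vector alone and 15.7, 18.5 and 16.2 CPM in those labelled Hmga2 (log2 fold change 0.37, SE 0.21, adjusted p = 0.855). Gp5 was at 47.1, 35.6 and 37.1 CPM with vector and 42.5, 61.4 and 43.5 CPM in the others (0.30, SE 0.18). Cd9, a tetraspanin of the platelet membrane, was at 105, 76.6 and 79.5 CPM with vector and 97.4, 126 and 88.7 CPM in those labelled Hmga2 (0.26, SE 0.17). For each of these receptors, vector replicate 1 lay above at least 1 library labelled Hmga2. Hmga2 replicate 2 was the highest library for 8 of the 11 receptors, among them Treml1, a receptor of platelet alpha granules, at 26.9 CPM against 8.31 to 13.9 CPM elsewhere. Gp9 ranged from 10.8 to 26.5 CPM with vector and 11.9 to 26.8 CPM in those labelled Hmga2 (0.21, SE 0.41), and Gp1bb from 10.4 to 17.6 and from 6.98 to 20.9 CPM (0.13, SE 0.40). Without Hmga2 replicate 2 the fold changes of Treml1, Gp9 and Gp1bb were negative. Clec1b, the podoplanin receptor, and Cd36, the thrombospondin receptor, were the receptors with negative values (-0.19 and -0.45), each highest in vector replicate 1 at 4.79 and 2.43 CPM, and without that library their values were positive. Clec1b also shares exonic sequence with Clec9a.

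**Figure D4:**
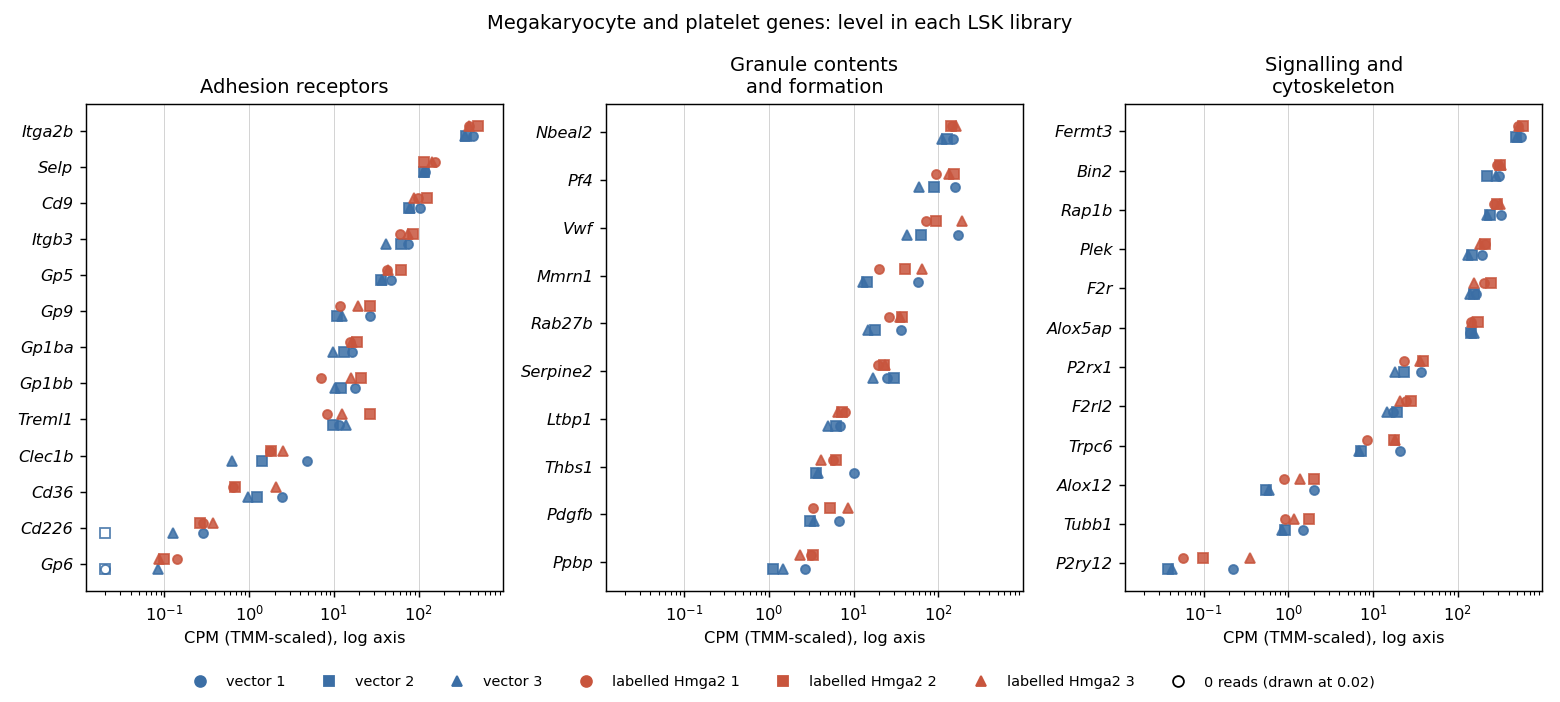
CPM of all 35 genes in each library on a log axis, by role; blue is vector, red is labelled Hmga2, and marker shapes give replicates 1 to 3. The colours interleave for all tested genes but F2rl2, and Gp6, Cd226 and P2ry12 lie under 0.4 CPM in every library.

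Of the 3 roles, granule genes had the widest spread between libraries. Among genes with a mean of at least 10 CPM, the ratio of the highest to the lowest library had a median of 2.60 for the 6 granule genes, 1.92 for the 9 adhesion receptors, 1.58 for the 9 signalling genes and 1.32 for all 10255 genes at that level. Mmrn1, which encodes the factor V carrier multimerin 1, had the widest ratio, 4.94, above that of 98.6% of genes, followed by Vwf at 4.52. Fermt3 and Alox5ap had the narrowest, 1.24 and 1.25.

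Of the 10 granule genes, 8 had a positive fold change, the median was 0.35 and 0 passed. Vwf, the multimeric ligand of GPIb (chromosome 6, positions 125546774 to 125686679), was at 169, 62.7 and 42.5 CPM in vector replicates 1 to 3 and at 72.6, 95.2 and 192 CPM in Hmga2 replicates 1 to 3 (log2 fold change 0.39, SE 0.56, adjusted p = 0.935). A single library in each group was far above the rest, and the fold change ran from -0.12 without Hmga2 replicate 3 to 1.19 without vector replicate 1. Mmrn1 had the same pair on top, 57.3 CPM in vector replicate 1 and 64.7 CPM in Hmga2 replicate 3, with 13.1 to 40.9 CPM in the other libraries (0.56, SE 0.65). Pf4 (chromosome 5, positions 90772435 to 90773383) was at 157, 89.7 and 58.7 CPM with vector and 93.9, 152 and 135 CPM in those labelled Hmga2 (0.31, SE 0.35, adjusted p = 0.911). The chemokine thus differed more among vector libraries than between the group means of 102 ± 50.4 and 127 ± 29.7 CPM (SD, n = 3 each).

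Ppbp, precursor of the neutrophil attractant NAP-2, had the highest fold change of the 32 genes, 0.73 (SE 0.36, adjusted p = 0.855). It rested on 29 to 111 reads per library, at 2.68, 1.11 and 1.47 CPM with vector alone and 3.14, 3.32 and 2.33 CPM in those labelled Hmga2; vector replicate 1 lay within the range of the latter. Rab27b, a GTPase of granule secretion, was at 36.4, 17.99 and 14.8 CPM with vector and 26.5, 37.4 and 35.6 CPM in those labelled Hmga2 (0.52, SE 0.33, adjusted p = 0.855). Nbeal2, needed to form alpha granules and the gene of grey platelet syndrome, was at 149, 125 and 112 CPM with vector and 146, 143 and 162 CPM in those labelled Hmga2 (0.22, SE 0.12). Ltbp1, which tethers latent TGF-beta, was at 6.995, 6.19 and 4.98 CPM with vector and 7.89, 7.22 and 6.58 CPM in those labelled Hmga2 (0.25, SE 0.19). All 4 overlapped between groups through vector replicate 1. Thbs1, the adhesive glycoprotein thrombospondin 1, and Serpine2, a thrombin-inhibiting serpin, had negative values, -0.12 at 3.57 to 9.99 CPM and -0.14 at 17.0 to 30.4 CPM. Pdgfb, a growth factor released from alpha granules, had 0.39 at 3.08 to 8.71 CPM.

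Signalling and cytoskeleton genes had positive values in all 11 tested, with a median of 0.31, and 0 passed. F2rl2 encodes the thrombin-binding cofactor receptor PAR3 (chromosome 13, positions 95696853 to 95702739 on mm10). In mouse platelets it assists PAR4, the product of F2rl3. It was at 17.1, 19.1 and 14.4 CPM with vector alone and 24.2, 28.2 and 20.5 CPM in those labelled Hmga2, on 344 to 867 reads. It was the 1 gene of 32 (3.12%) with all libraries labelled Hmga2 above all vector libraries, beside 5.28% of all genes, and 0 of 32 had the reverse order, beside 5.88%. The means were 16.9 ± 2.38 and 24.3 ± 3.86 CPM (SD, n = 3 each) and the log2 fold change 0.52 (SE 0.17, 95% interval 0.13 to 0.92, adjusted p = 0.855). An exact two-sided permutation test gave p = 0.1, the smallest this design allows. The value stayed between 0.40 and 0.63 with any 1 library left out. The gene lies within Iqgap2, on the opposite strand and without exon overlap.

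F2r encodes PAR1, the main thrombin receptor of human but not of mouse platelets, and lies close by on the same chromosome (positions 95601803 to 95618487). Its levels were 162, 156 and 139 CPM in the vector libraries and 205, 245 and 156 CPM in those labelled Hmga2 (0.40, SE 0.16, adjusted p = 0.855), with Hmga2 replicate 3 inside the vector range. Plek, the pleckstrin phosphorylated by protein kinase C in activated platelets, was at 192, 146 and 133 CPM with vector and 210, 209 and 181 CPM in those labelled Hmga2 (0.35, SE 0.15, adjusted p = 0.855). The library that closed the gap was vector replicate 1, which lay above Hmga2 replicate 3. Bin2 was at 309, 220 and 283 CPM with vector and 286, 310 and 325 CPM in those labelled Hmga2 (0.18, SE 0.13). Exons of Plek overlap Cnrip1 on the opposite strand; Cnrip1 itself was at 4.52 to 7.53 CPM. Fermt3 overlaps Trpt1, and Alox5ap and Thbs1 overlap noncoding genes, in the same way.

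The other signalling genes split by spread rather than by group. Trpc6, a calcium-permeable channel, ranged from 6.87 to 20.5 CPM and Alox12, the platelet 12-lipoxygenase, from 0.538 to 2.02 CPM, both highest in vector replicate 1. P2rx1, the ATP-gated channel, ranged from 18.3 to 38.3 CPM. Fermt3 kept to 479 to 594 CPM, Rap1b to 219 to 320 CPM and Alox5ap to 139 to 173 CPM; these are genes that other blood cells also express. Tubb1 stayed between 0.837 and 1.76 CPM in every library.

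Genes around the platelet programme that were not members gave no called gene either. Of 15 genes for megakaryocyte transcription factors, 13 had a positive fold change (50.4% of all genes), with a median of 0.21, and 3 were higher at an unadjusted p under 0.05 (2.23% of all genes). These were Fli1, the ETS factor of megakaryocytes (0.32), Runx1 (0.26) and the homeobox gene Meis1 (0.45), each with adjusted p = 0.855 in edgeR. Gata1, the master factor of erythroid cells and megakaryocytes, had -0.10.

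Platelet activation genes had 29 of 33 positive values and a median of 0.15. The kinase gene Syk, downstream of Gp6 and Clec1b, had 0.26, the laminin receptor chain Itga6 0.30 and the ADP receptor P2ry1 0.40, and these were the 3 of 33 higher at an unadjusted p under 0.05, again beside 2.23% of all genes. Genes of granule formation and secretion were nearer balance, with 16 of 25 positive and a median of 0.05. The smallest p-values there belonged to Angpt1, the stem cell and platelet ligand of the Tie2 receptor (0.42), the organelle-sorting gene Hps5 (0.16) and the GTPase gene Rab38 (0.23). Of 13 genes of the platelet-shedding cytoskeleton 11 were positive, with a median of 0.15, and 5 were higher at an unadjusted p under 0.05, beside the same 2.23%. The groups did not overlap for 5 higher genes (5.28% of all genes) and 1 lower gene (5.88%), the tubulin gene Tuba4a (-0.14). Among the higher Tpm4, a tropomyosin needed for platelet production, was at 32.8, 34.3 and 32.8 CPM with vector alone and 50.3, 38.7 and 57.7 CPM in those labelled Hmga2 (0.55, SE 0.15, adjusted p = 0.855). Myl9, a myosin light chain gene, had 1.43 at 0.284 to 1.59 CPM, and Myh9, the non-muscle myosin heavy chain, 0.30.

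Markers of other cells that use these genes were measured in the same libraries. Of the 10 LSK and stem cell markers, 8 had a positive fold change, 5 were highest in vector replicate 1 and 6 were lowest in vector replicate 2. Procr was at 20.9, 7.11 and 8.83 CPM in vector replicates 1 to 3 and at 9.78, 14.0 and 12.8 CPM in Hmga2 replicates 1 to 3, and Mecom at 37.6, 7.995 and 13.9 CPM with vector and 22.2, 21.8 and 31.8 CPM in those labelled Hmga2. Other genes of the list went other ways: Cd34 was lowest in vector replicate 1 (526 CPM), Ly6a highest in vector replicate 3 (59.1 CPM), Kit highest in Hmga2 replicate 1 (375 CPM) and Flt3 in Hmga2 replicate 3 (147 CPM). The markers named here and in the next paragraphs were chosen after their values were seen, and their part in the result was not tested.

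Endothelial cells also express Vwf, Selp and Mmrn1. The 10 endothelial markers summed to 50.4 to 103.6 CPM in the vector libraries and 76.1 to 104.1 CPM in those labelled Hmga2, most of it Tie1, which stem cells share and which was highest in vector replicate 1 (94.2 CPM). Plvap was lowest in vector replicate 1 (3.53 CPM) and highest in vector replicate 3 (6.95 CPM). Emcn ranged from 0.367 to 7.45 CPM, highest in Hmga2 replicate 2, and Kdr from 2.05 to 4.28 CPM. The other 6 stayed at or under 1.22 CPM in every library. The defining gene Cdh5 was highest in vector replicate 1 (0.536 CPM, 17 reads) and Hmga2 replicate 3 (0.466 CPM, 16 reads). That pair was also highest for Vwf and Mmrn1. Kdr, Stab2, Cldn5, Flt4, Ptprb and Lyve1 were all highest in Hmga2 replicate 3, and none of the 10 markers was at 0 throughout. Vector replicate 1 and Hmga2 replicate 3 were likewise the highest pair for Flt4 (0.536 and 1.02 CPM) and Cldn5 (0.126 and 0.466 CPM). For other markers they were not: in vector replicate 1 Kdr and Stab2 were at 2.17 and 0.221 CPM, and Ptprb and Lyve1 had 0 reads. The endothelial markers thus shared no single order of libraries, and their part in the result was not tested.

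Granulocyte markers had lower values in the libraries labelled Hmga2. Of 12 listed, 11 were tested and 0 had a positive fold change; for 8 (Elane, Ms4a3, Ltf, Ngp, Camp, Lcn2, S100a8 and S100a9) all libraries labelled Hmga2 lay below all vector libraries, beside 5.88% of all genes. DESeq2 called 4 of the 11 lower, Ms4a3, Ltf, Ngp and Lcn2, while edgeR called 0, with a smallest adjusted p = 0.855. Ms4a3, a gene of granulocyte and monocyte progenitors, was at 137, 262 and 240 CPM with vector and 130, 84.6 and 96.0 CPM in those labelled Hmga2 (DESeq2 adjusted p = 0.00752). The sum of the list, mostly Mpo, was 4391 to 9321 CPM and 2985 to 4859 CPM, highest in vector replicate 2. This difference in another lineage, and the lower values of most erythroid markers in the next paragraph, lay beside the positive fold changes of the platelet genes. The part of either in the result was not tested.

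Mast cell and basophil markers (7 of 7 measured) summed to 258 to 346 CPM in the vector libraries and 158 to 455 CPM in those labelled Hmga2, with Hmga2 replicate 2 highest and Hmga2 replicate 3 lowest. Monocyte and macrophage markers (10 of 10), whose cells express Cd36, Thbs1 and Plek, summed to 206 to 426 CPM and 190 to 389 CPM. Erythroid markers (11 of 11) summed to 1658 to 2195 CPM and 1135 to 1690 CPM, with 2 of 11 positive and 2 called lower by DESeq2. B and plasma cell markers (10 of 10) summed to 702 to 11017 CPM and 569 to 3555 CPM, with 1 called lower by DESeq2. For T and NK cells, which express Cd226, 9 of 9 markers were listed and summed to 130 to 232 CPM and 152 to 179 CPM, nearly all Nkg7, with Cd3e at 0 in 4 libraries and under 0.05 CPM in the other 2. In none of these lists was a gene at 0 in all libraries, and their part in the result was not tested.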

How the data were processed

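RNA sequencing libraries of LSK cells from 3 vector and 3 Hmga2-labelled samples were analysed, with groups and replicate numbers taken from the sample titles. The authors deposited expected counts, estimated read counts per gene symbol, as judged from the values: none below 0, 67.3% to 70.1% of those above 0 whole within 1e-06, and unequal totals. Partek 3.0, Bowtie2 and build mm10 are named per the submitters' processing notes; the counter, the annotation and any use of strand remain not given in the sources used here. Such estimated counts share reads between similar or overlapping genes.

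Rounded counts went into edgeR 4.0.16 under R 4.3.3 (filterByExpr, TMM, quasi-likelihood F test on group, Benjamini-Hochberg over all 16739 genes, threshold 0.05), with DESeq2 1.42.0 as the other tool; standard errors come from the F statistic. Log2 CPM used a prior count of 2. Levels per kilobase and positions use GENCODE M21 on mm10, which held 97.3% of tested symbols. The fit was also run on simulated counts drawn separately for each gene, without deviations shared within a library. That run therefore cannot speak to the shared library deviations described above. Replicate libraries were distinct: pairs within a group gave a chi-square of 23.0 to 52.4 per degree of freedom.

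The members and lists were chosen with earlier results of these data known. Values in every library were given for Pf4, Itga2b, Vwf and F2r and for the 4 members of each role with the smallest unadjusted p, and up to 3 genes were named per further list; Gata1, Treml1, Clec1b, Cd36, the markers and other members named by range fall outside that rule. The alternatives comprised a replicate block, leaving out each library, RLE size factors, no count filter, DESeq2, immunoglobulin genes left out, and terms for immunoglobulin-rich libraries or Y-linked genes. Of the further lists, Mpig6b was matched under its older symbol G6b, Sept5 was not matched, and 1 further gene of those lists is not reported here.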

Additional observations from a re-analysis of the deposited data

How the results depend on the processing

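Under every alternative run, 0 of the 35 genes and 0 genes of the further pathway lists passed the adjusted threshold, so no call was there to lose. Among all genes tested, 0 passed in edgeR, against 1 without the count filter, 1 with the Y-linked term and 71 in DESeq2 (9 higher and 62 lower); 935 genes had an unadjusted p under 0.05 in edgeR. The median of the 32 genes was 0.27 with RLE size factors or without immunoglobulin genes, and 0.31 for 35 genes without the count filter. It was 0.39 when the model held immunoglobulin richness and 0.45 when it held Y-linked expression, which is partly confounded with the label.

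Across the 6 fits that left out a library, the median ran from 0.13 to 0.51 and the number of positive values from 23 to 31. Fold changes that crossed 0 in this way ranged from -0.22 to 0.46 for Gp1bb, -0.11 to 0.72 for Gp9, -0.63 to 0.97 for Clec1b, -1.21 to 0.048 for Cd36, -0.17 to 0.74 for Treml1, -0.12 to 1.19 for Vwf, -0.38 to 0.52 for Thbs1, -0.031 to 0.84 for Pdgfb, -0.33 to 0.069 for Serpine2, -0.021 to 0.13 for Alox5ap and -0.071 to 0.53 for Tubb1. Thbs1 was also positive with the immunoglobulin term (0.15) and the Y-linked term (0.14).

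Same-numbered libraries did not deviate together (correlations -0.21, -0.50 and -0.26), so the numbers were not taken as pairs. With the replicate block 0 genes passed, the median was 0.27, 30 of 32 values were positive, and Clec1b (0.25) and Thbs1 (0.021) changed sign; the cause was not tested. Gp6, Cd226 and P2ry12, at 0 to 13 reads per library, were too shallow for a comparison.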
